A study of Mus musculus with 21 samples.

Results

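Hearts of mouse embryos labelled null for the chromatin remodeller gene Chd4 were compared with control hearts at embryonic day (E) 9.5. The comparison used 10 of the 21 samples of the series, chosen by their labels: 5 null samples, whose source is given as Chd4(Δflox/Δflox) cardiac tissue, and 5 flox samples, given as Chd4(flox/flox) cardiac tissue. In the null both floxed alleles are recombined, and the flox controls carry the same alleles unrecombined. All embryos were of the CD1 strain. Each sample was 1 sequencing library made from 200 ng of polyadenylated RNA with a stranded kit. The recombinase, the cells it acts in, and whether a library is 1 heart or a pool were not found in the labels. The submitters describe the samples as biological replicates, and p-values measure the spread between these samples. The other samples were 6 RNA libraries at E10.5, 3 libraries of CHD4 chromatin immunoprecipitation (ChIP) from wild-type hearts at E10.0, and inputs. Expression is given as RPKM, a read count scaled to gene length and library size. The deposited table lists 24509 genes, and the 13643 that averaged 0.5 RPKM or more were tested.

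CHD4 is the ATPase of the NuRD complex, which couples nucleosome remodelling with histone deacetylation and is best known for keeping genes of other lineages silent. The complex also holds histone deacetylases, MTA proteins, histone-binding RBBP proteins, GATAD2 proteins and methyl-CpG-binding MBD proteins, and CHD3 or CHD5 can take the place of CHD4. The heart tube at this stage is looped, its chambers are starting to trabeculate, and primitive red cells have begun to circulate through it.

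The libraries held 17.1 to 23.5 M reads each, of which 14.6 to 19.96 M lay on listed genes, and all replicate pairs differed by more than sampling noise. The first principal component took 40.8% of the variance and placed every flox library (-30.9 to -10.4) below every null library (-4.53 to 40.6), with null 1 nearest to flox. Each library held either Xist or the Y-linked Ddx3y: Xist in flox 1 to 4, null 1 and null 3, and Ddx3y in flox 5, null 2, null 4 and null 5, so the sex of the embryos was not balanced between the groups. Erythroid genes took 0.968 to 2.44% of reads in flox and 2.33 to 5.98% in null. Defining cardiomyocyte markers were abundant in every library, summing to 15148 to 18764 RPKM in flox and 11798 to 15743 in null, with null 1 inside the flox range. In such bulk samples fewer cells of a type and less RNA per cell cannot be told apart.

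In the null hearts 2342 genes changed, 17.2% of those tested (limma on log2(RPKM + 0.5), Benjamini-Hochberg adjusted p under 0.05, two-sided). Of these 937 rose (6.87% of tested genes) and 1405 fell (10.3%). Rises were larger and sat at lower levels than falls. The median log2 difference of the rises was 0.58, that of the falls -0.37 and that of all tested genes -0.04. At least 2-fold changes were 188 rises and 39 falls, and 47.4% of all rises but 22.9% of all falls had a mean under 5 RPKM. From the lowest to the highest quintile of mean expression the share of genes that rose went from 10.2% to 5.94%, and the share that fell from 4.98% to 12.6%. For 14.1% of tested genes the groups were fully separate, with null above flox for 750 and below for 1169. The plot of difference against level shows this shape.

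**Figure D1:**
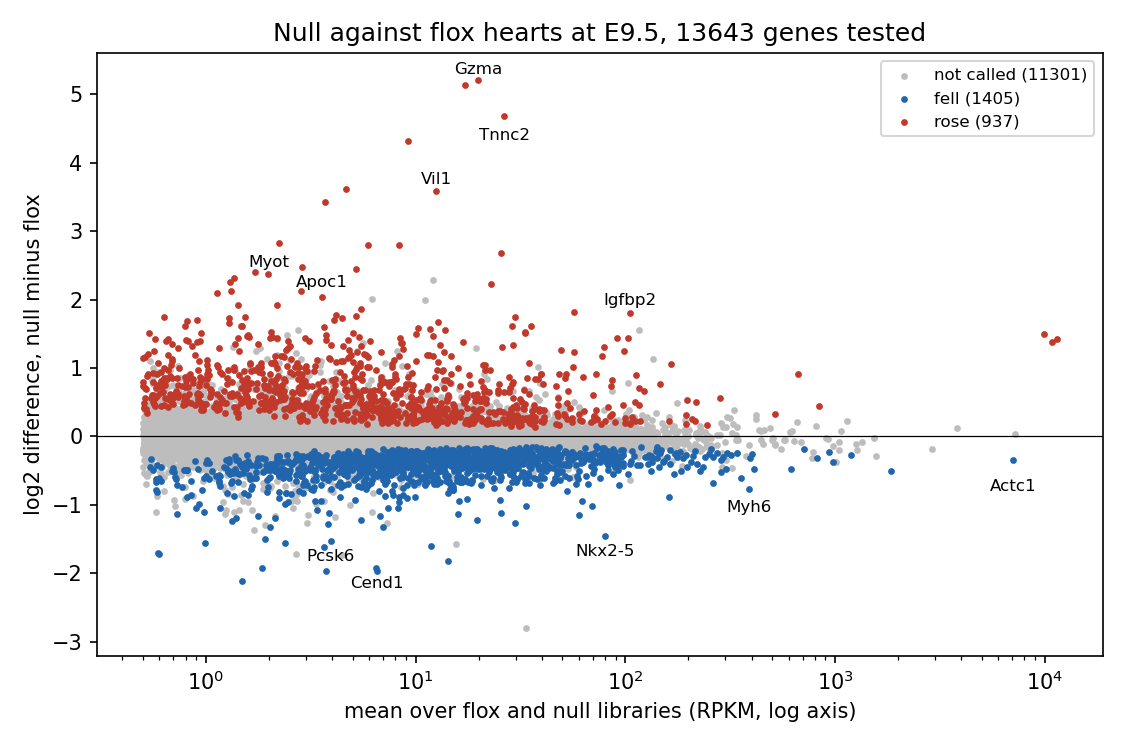
Log2 difference (null minus flox) of each tested gene at E9.5 against its mean over all 10 libraries in RPKM (log axis); colours give the 937 rises, 1405 falls and the genes not called. Large rises lie at low to middle levels, and falls of less than 1 on the log2 scale fill the middle and high levels.

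With the mean level of erythroid genes in the fit 127 rises and 68 falls were called, with the sex of the library 569 and 669. Without null 5, 678 rises and 865 falls were called. Without flox 1, flox 3 and null 1, the 3 libraries with the lowest epicardial markers, there were 626 and 718. With the erythroid level in the fit the median standard error grew 1.504-fold and 2341 of the 2342 genes kept the sign of their difference. The erythroid level and the genotype move together, and their parts in the result cannot be told apart. After rescaling the libraries to a common median, rises were 52.8% of the calls instead of 40.01%. Of the 2342 genes, 91.8% are also in the authors' deposited table of changed genes, none with the other direction. That table holds 3094 genes, 1625 higher and 1469 lower in null, and 69.5% of them were called here.

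Chd4 itself fell to 49.5% of its flox level (92.4 ± 1.33 to 45.7 ± 3.08 RPKM, SD, n = 5 each; log2 difference -1.01, limma adjusted p = 1.69e-06), with every null library below every flox library. RPKM counts the whole gene, so transcripts of recombined alleles are included. Among 21 tested genes of CHD proteins and NuRD subunits, 1 rose and 3 fell (4.76% and 14.3%, against 6.87% and 10.3% of all genes). Chd3, the paralog that can replace CHD4 as the ATPase of the complex, was at 14.3, 15.8, 15.2, 14.6 and 13.96 RPKM in flox 1 to 5 and at 27.7, 27.2, 29.3, 22.9 and 24.4 RPKM in null 1 to 5. The groups did not overlap, and the rise was 0.81 on the log2 scale (SE 0.0715, limma adjusted p = 7.39e-05). It passed in each of the 24 other settings tried. The remodeller gene Chd7 (13.7 to 11.5 RPKM, -0.24) and the NuRD subunit gene Mta1 (41.4 to 33.6 RPKM, -0.30) also fell, with 1 null library inside the flox range for each. Both calls ended after median scaling, without flox 5, without null 5, and in the fits with sex or erythroid level, and that of Mta1 also without flox 3 or 4 or null 2 or 3. The 3 falls of the list then became 1 without flox 5 or null 5. The median of the list was -0.07, near that of all genes. Chd5, named after its values were seen, was under the expression filter and so not among the 21. It was at 0.0296, 0.0766, 0.0431, 0.0834 and 0.0560 RPKM in flox 1 to 5 and at 0.554, 0.851, 0.866, 0.861 and 0.787 RPKM in null 1 to 5. Every null library was above every flox library, and without the filter the list had 2 rises.

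Some genes that rose are best known from neurons; of the 4 described first, Cplx1 and Mapk8ip2 were among the 20 largest rises. Cplx1, encoding complexin 1, which clamps the synaptic vesicle fusion machinery (chromosome 5, 108518554 to 108550027 in the RefSeq table of GRCm38.p6, the assembly of mm10), stood at 0.809, 0.837, 0.861, 0.338 and 0.813 RPKM in flox 1 to 5 and at 4.38, 5.01, 6.91, 3.37 and 4.94 RPKM in null 1 to 5. It rose 6.73-fold (log2 difference 2.13, SE 0.183, limma adjusted p = 6.33e-05). Flox 4 was the lowest flox library and null 4 the lowest null library. Mapk8ip2, a scaffold of JNK signalling found mainly in brain, rose from 0.297 ± 0.0834 to 2.54 ± 0.406 RPKM (SD, n = 5 each; 1.93, limma adjusted p = 7.34e-06). Prph, the intermediate filament peripherin of peripheral neurons, was at 0.176, 0.138, 0.1096, 0.186 and 0.0518 RPKM in flox and 1.64, 1.67, 1.66, 1.27 and 1.001 RPKM in null (1.61, adjusted p = 5.85e-05). Bex1, a gene of the brain-expressed X-linked family already abundant in these hearts, rose from 92.02 ± 2.85 to 131 ± 7.58 RPKM (0.51). For Cplx1 and Mapk8ip2 the lack of overlap between the groups was fixed by the choice. Prph and Bex1 did not overlap either, as was so for 14.1% of all tested genes. All 4 genes passed in all 24 other settings, the one with no filter among them. Mapk8ip2 and Prph averaged under 0.5 RPKM in flox and passed the main filter only through the null libraries.

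In the whole list of 34 tested neuronal genes 6 rose and 4 fell (17.6% and 11.8%, against 6.87% and 10.3% of all genes). The median difference was 0.09. The falls included Cend1, which promotes exit of neuronal precursors from the cell cycle. It was at 10.4, 10.98, 9.41, 12.1 and 9.93 RPKM in flox and 3.097, 2.09, 2.17, 2.59 and 2.246 RPKM in null (-1.92, limma adjusted p = 1.69e-06). Genes of the list moved in both directions. Leaving out any 1 library left 6 or 7 rises and 4 or 5 falls, and with the erythroid level in the fit there were 3 rises and 2 falls. The defining markers of neural crest and neurons summed to 7.38 to 16.03 RPKM in flox and 7.65 to 17.8 RPKM in null, so their ranges nearly coincided. Among kinesins and tubulins 6 of 45 rose and 3 fell (13.3% and 6.67%, against 6.87% and 10.3% of all genes). The axonal motor genes Kif5c (1.13 to 3.82 RPKM, 1.40, adjusted p = 0.000104) and Kif1a (0.859 to 3.29 RPKM, 1.45, adjusted p = 0.002298) led the rises, together with the tubulin gene Tuba4a (8.41 to 14.5 RPKM, 0.74). With the erythroid level in the fit Kif5c was the 1 kinesin or tubulin gene that still rose. After median scaling 12 rose.

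Other genes of the 20 largest rises, which were chosen for having no overlap between the groups, have varied roles. Myot, encoding the Z-disc protein myotilin of striated muscle, was at 0.3604, 0.136, 0.5096, 0.291 and 0.262 RPKM in flox and 3.56, 3.26, 4.11, 3.68 and 3.705 RPKM in null (2.37, limma adjusted p = 1.69e-06). The apolipoprotein gene Apoc1 was at 0.9298, 1.55, 1.11, 0.983 and 0.959 RPKM in flox and 5.62, 6.07, 6.24, 6.79 and 5.38 RPKM in null (2.03, adjusted p = 1.91e-06). Both sets of 5 libraries were tight, with SDs of 0.307 RPKM for Myot and 0.553 RPKM for Apoc1 in null. Lncenc1, a long noncoding RNA known from embryonic stem cells, rose from 0.186 ± 0.0658 to 3.23 ± 0.919 RPKM (2.41), with null 1 lowest of the null libraries. Cpa1, which encodes a digestive carboxypeptidase, rose from 2.01 ± 0.385 to 8.92 ± 2.54 RPKM (1.87). Aoc3, an amine oxidase gene of vascular smooth muscle and fat, rose from 1.61 ± 0.401 to 6.73 ± 1.58 RPKM (1.77). Igfbp2, which binds insulin-like growth factors, was the most abundant of the 20 largest rises, at 34.7, 40.1, 40.1, 83.7 and 41.0003 RPKM in flox and 110.2, 173, 174, 205 and 151 RPKM in null (1.80, adjusted p = 0.000693). Flox 4 stood well above the other flox libraries for this gene, and its call ended with the erythroid level in the fit (adjusted p = 0.0513).

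**Figure D2:**
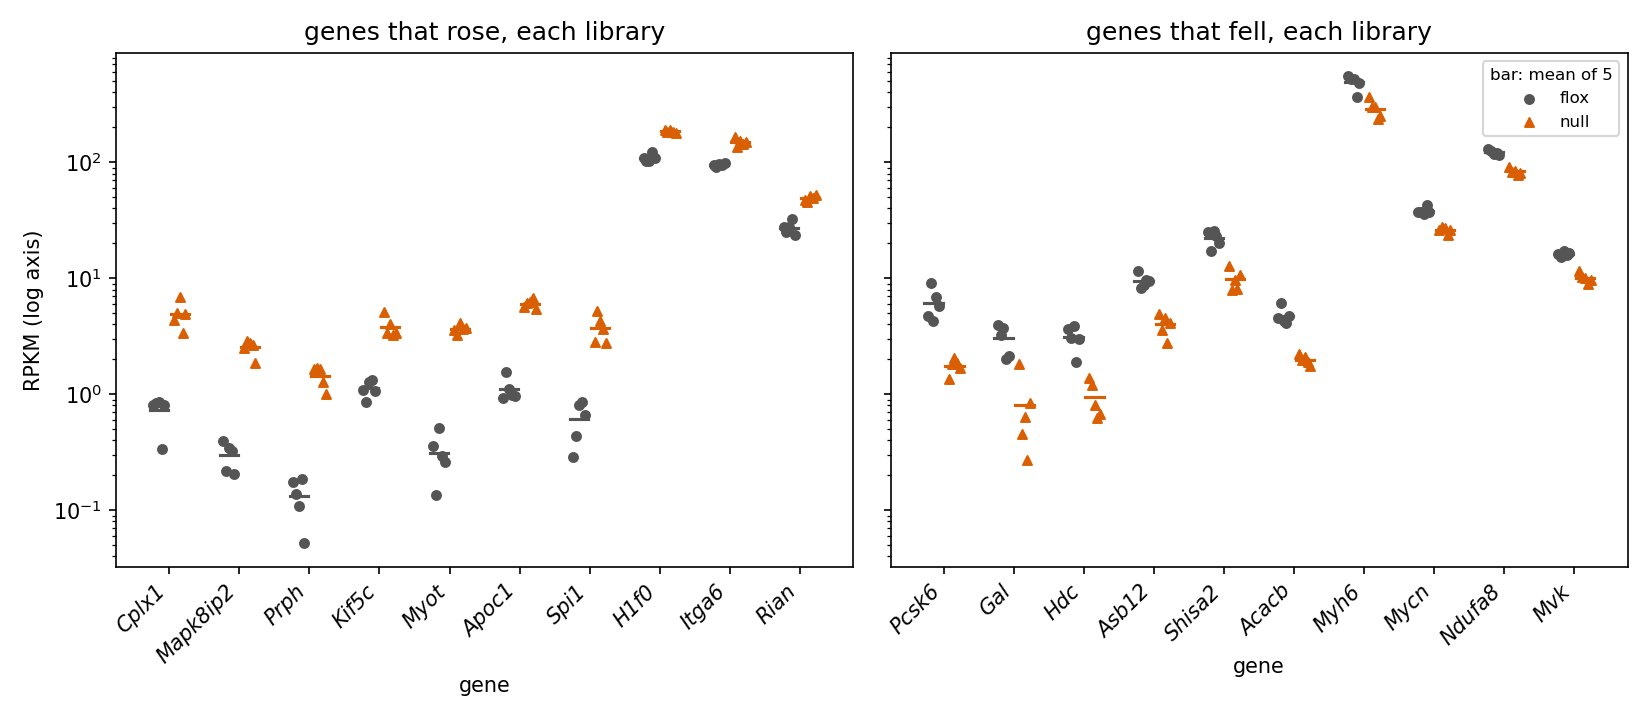
RPKM (log axis) in each flox (circles) and null (triangles) library for 10 genes that rose (left) and 10 that fell (right); bars are means of 5. All 20 were picked from genes without overlap, so the separate ranges of circles and triangles restate that choice, and the plot shows the size of the gaps and the spread within groups.

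The large falls reached lower folds than the rises. Pcsk6, a proprotein convertase that activates TGF-beta family ligands, was at 4.73, 9.11, 4.297, 6.87 and 5.73 RPKM in flox and 1.35, 1.84, 2.04, 1.85 and 1.67 RPKM in null (-1.52, limma adjusted p = 0.000366). Hdc, the histamine-making histidine decarboxylase, was at 3.63, 3.05, 3.902, 1.898 and 2.9997 RPKM in flox and 1.38, 1.204, 0.815, 0.627 and 0.674 RPKM in null (-1.32, adjusted p = 0.00149). Gal, the gene of the neuropeptide galanin, was at 3.99, 3.27, 3.71, 2.02 and 2.15 RPKM in flox and 1.82, 0.450000, 0.638, 0.274 and 0.835 RPKM in null (-1.50, adjusted p = 0.00519). Null 1 was the highest null library for both Hdc and Gal. That it lay below all flox libraries was fixed by choosing the largest falls from genes without overlap. Mov10l1, an RNA helicase gene of the germline piRNA pathway with a known cardiac transcript, fell from 10.2 ± 1.63 to 3.87 ± 1.12 RPKM (-1.32). Rtn4rl1, a relative of the Nogo receptor, fell from 7.87 ± 1.32 to 3.104 ± 0.634 RPKM (-1.22). Shisa2, which holds back receptors of Wnt and FGF signalling, fell from 22.1 ± 3.56 to 9.81 ± 1.99 RPKM (-1.14).

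Asb12, an ankyrin repeat protein gene, was at 11.5, 8.17, 8.67, 9.63 and 9.49 RPKM in flox and 4.88, 3.58, 4.58, 2.79 and 4.14 RPKM in null (-1.17, limma adjusted p = 0.000401). Fbxl22, an F-box protein gene of the Z-disc, fell from 27.4 ± 5.79 to 11.7 ± 3.86 RPKM (-1.22), and Tmem182, a membrane protein gene of muscle, from 2.599 ± 0.571 to 0.924 ± 0.4404 RPKM (-1.16). Cox8b, the muscle form of a cytochrome c oxidase subunit, fell from 3.15 ± 1.404 to 1.103 ± 0.6303 RPKM (-1.19, adjusted p = 0.0226), and its call ended without flox 2, null 3 or null 5. H2-Q2, an MHC class I gene, fell from 3.82 ± 0.691 to 0.95003 ± 0.0472 RPKM (-1.56), which is uncertain because reads may be shared with near-identical genes of its family. With the erythroid level in the fit Pcsk6, Rtn4rl1, Asb12 and H2-Q2 still fell, and the calls of Hdc, Gal, Mov10l1, Shisa2, Fbxl22, Tmem182 and Cox8b ended. The differences in that fit, where standard errors were larger, were -1.42, -1.19, -0.98, -1.07, -1.03, -0.93 and -1.20 in that order.

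The skeletal muscle contractile list had 20 tested genes, with a median difference of 0.26. Of these 9 rose and 3 fell (45% and 15%, against 6.87% and 10.3% of all genes). The list holds the thin and thick filament, triad and calcium store genes of fast and slow fibres. Tnnc2, fast skeletal troponin C, was the largest of the 20 largest rises without overlap, at 2.04, 0.931, 2.08, 1.08 and 1.54 RPKM in flox and 38.4, 68.1, 53.9, 41.8 and 55.3 RPKM in null (4.69, limma adjusted p = 5.49e-07). Not all genes of the list moved that way. Klhl41, a kelch protein gene that guards nebulin, fell from 8.58 ± 1.26 to 4.78 ± 0.9901 RPKM (-0.79, adjusted p = 0.00318), and Smpx, of the muscle cytoskeleton, from 156 ± 19.8 to 109.7 ± 17.6 RPKM (-0.51, adjusted p = 0.0148); both were chosen after their values were seen. The 9 rises ranged from 7 to 9 when any 1 library was left out, and with the erythroid level in the fit 6 genes rose and the 3 falls were not called. The genes that start skeletal myogenesis gave almost no reads. The 6 skeletal myogenic cell markers summed to at most 0.0667 RPKM in flox and 0.109 RPKM in null, and Myf5 and Pax7 had no read in any library. Of 22 genes of that programme 5 were tested, none was called by limma. At an unadjusted p under 0.05 limma had 3 lower and 0 higher, and voom called 1 fall. In 21 smooth muscle genes 2 rose and 2 fell (9.52% each, against 6.87% and 10.3% of all genes). The defining smooth muscle markers summed to 1647 to 2303 RPKM in flox and 1789 to 2304 RPKM in null. Acta2, Tagln and Cnn1 made up nearly all of that sum. The remaining marker Myh11 was at 1.02 to 2.11 RPKM in flox and 7.72 to 10.9 RPKM in null. It was one of the 20 largest rises, so its lack of overlap was fixed by the choice. Synpo2, an actin-binding protein gene of smooth and striated muscle, fell from 18.3 ± 1.24 to 10.4 ± 2.41 RPKM (-0.82, adjusted p = 0.00374). Myocd, the coactivator of serum response factor, fell from 31.8 ± 2.998 to 24.2 ± 5.28 RPKM (-0.41, adjusted p = 0.0481), with null 1 inside the flox range, and its call ended in 15 of the 24 other settings, among them leaving out any library other than null 1. The counts of smooth muscle rises and falls were 1 to 3 and 1 to 4 when 1 library was left out.

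Genes of the cardiac chambers and conduction system fell in 13 of 43 cases (30.2%, against 10.3% of all genes), with a median of -0.28. None rose in limma, with 1 higher at an unadjusted p under 0.05, and voom called 1 rise. Myh6, the alpha myosin heavy chain of atria and early chambers, was at 551, 528, 526, 367 and 484 RPKM in flox and 362, 298, 301, 236 and 252 RPKM in null (-0.76, limma adjusted p = 0.00399). Null 1 came closest to the flox range here too, and lay below it. Mycn, a proliferation factor gene of trabecular and compact myocardium, was at 37.3, 37.001, 36.1, 43.1 and 37.3 RPKM in flox and 25.9, 27.7, 27.1, 23.8 and 26.3 RPKM in null (-0.53, adjusted p = 0.000366). The Iroquois factor genes Irx1 (6.74 to 3.84 RPKM, -0.72), Irx3 (5.41 to 3.27 RPKM, -0.66) and Irx4 (29.3 to 17.9 RPKM, -0.75) and Hey2, a Notch target of the ventricle (35.1 to 26.1 RPKM, -0.41), also fell. Of these Hey2 meets the rule for named genes, and the other 3 were chosen after their values were seen. Tbx5, a T-box factor of the atria and left ventricle, had the largest p of the 13 (31.01 ± 1.07 to 25.8 ± 3.65 RPKM, adjusted p = 0.0498), and its call ended in 18 of the 24 other settings, among them leaving out any library other than null 1. The call of Irx4 ended without flox 1, 2, 3 or 5 or null 5, and that of Hey2 without flox 1, 2 or 5 or null 2 or 5. Tbx5 was also chosen after its values were seen. Among second heart field and outflow tract genes 3 of 25 fell (12%, near the 10.3% of all genes). They were Sema3c, a guidance ligand for neural crest (11.7 to 7.32 RPKM, -0.65), Wnt11 (13.8 to 8.27 RPKM, -0.71) and Smyd1, a muscle histone methyltransferase gene (203 to 139.8 RPKM, -0.55). The 13 chamber falls became 8 without flox 1, flox 5 or null 5, 8 with the sex and 3 with the erythroid level in the fit (Mycn among them), and then no second heart field gene passed.

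Some of the most abundant heart transcripts also changed. Myl4, an atrial light chain, fell from 2167 ± 235 to 1539 ± 307 RPKM (-0.51), the adenine nucleotide carrier Slc25a4 from 1100.3 ± 66.7 to 849 ± 96.2 RPKM (-0.38), and cardiac actin Actc1 from 7921 ± 544 to 6239 ± 615 RPKM (-0.35). Cdkn1c, an imprinted inhibitor of cyclin-dependent kinases, fell from 716 ± 48.7 to 520.01 ± 92.7 RPKM (-0.48). The actin-sequestering thymosin gene Tmsb4x rose from 704 ± 85.3 to 965 ± 148 RPKM (0.45), with null 1 inside the flox range. The limma adjusted p of these 5 ran from 0.0129 to 0.0349. All 5 calls ended with the erythroid level in the fit, the calls of Myl4, Actc1 and Tmsb4x also without flox 1, flox 3, flox 5 or null 5. That of Actc1 ended without flox 4, null 2, null 3 or null 4 too and after median scaling (adjusted p = 0.0598), and that of Tmsb4x without null 2 or null 3. In the splicing factor list 3 of 20 genes fell and 2 rose (15% and 10%, against 10.3% and 6.87% of all genes). Rbm20, which controls titin splicing, fell from 18.3 ± 1.27 to 13.5 ± 1.37 RPKM (-0.43, adjusted p = 0.00399), and Mbnl1 rose from 13.2 ± 1.705 to 23.1 ± 5.14 RPKM (0.76, adjusted p = 0.005998). The 3 falls were 1 without any of flox 1, 3, 4 and 5 and null 2, 3 and 5.

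Subunits of oxidative phosphorylation were lower in null in most cases. Of 83 tested subunits of the respiratory chain and ATP synthase, 53 fell (63.9%, against 10.3% of all genes) and 1 rose. For 50 of the 83 every null library was below every flox library, which held for 1169 of all 13643 tested genes. The median was -0.26, against -0.04 for all genes, and 78 of the 83 were lower in null. The falls were spread over all complexes: 22 of 36 in complex I, 3 of 4 in complex II, 7 of 10 in complex III with cytochrome c, 11 of 16 in complex IV and 10 of 17 in the ATP synthase. Together the subunits took 1.46 to 1.59% of reads in flox and 1.19 to 1.30% in null. Ndufa8, a subunit of complex I, was at 131, 124, 118, 120.1 and 116 RPKM in flox and 91.98, 82.8, 83.6, 78.2 and 80.9 RPKM in null (-0.54, limma adjusted p = 0.000178). Sdhc, a membrane anchor of complex II, fell from 171 ± 3.86 to 131 ± 6.55 RPKM (-0.38), and Ndufc1 of complex I from 107 ± 6.49 to 80.6 ± 3.47 RPKM (-0.41). The heart isoform Cox7a1 of complex IV fell more, from 65.5 ± 6.67 to 42.8 ± 6.18 RPKM (-0.61). The rise was that of Cox6b2, an isoform otherwise typical of testis, from 6.79 ± 1.55 to 16.4 ± 5.49 RPKM (1.18, adjusted p = 0.00473). Cox7a1 and Cox6b2 were chosen after their values were seen.

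The 53 falls ranged from 42 to 51 when 1 library was left out, and were 44 after median scaling, 37 with the sex in the fit, 28 without flox 1, flox 3 and null 1, and 1 (Ndufa8) with the erythroid level. Mitochondrially encoded genes are not analysed here. Mitochondrial ribosomal proteins fell in 12 of 76 genes (15.8%, against 10.3% of all genes, median -0.18), with 70 of 76 lower in null. Mrpl14, the member with the smallest p, was at 51.7, 48.1, 52.8, 48.7 and 43.5 RPKM in flox and 32.6, 35.8, 30.8, 41.6 and 30.9 RPKM in null (-0.51, limma adjusted p = 0.00332). That count was 7 without flox 1 or flox 3, 6 with the sex, 3 without flox 1, flox 3 and null 1, and 1 with the erythroid level in the fit. Cytosolic ribosomal proteins had a median of -0.02, with 4 of 82 lower and 2 higher at the threshold (4.88% and 2.44%, both under the shares of all genes). The 4 were 2 without any of flox 1, 4 and 5 and null 3, 4 and 5 and 7 without null 1, and the 2 were 0 without any of flox 2 and 5 and null 2, 3 and 5 and 1 without flox 4 or null 4. Short genes were lower on the whole: the median difference went from -0.11 in the shortest to -0.01 in the longest quintile of gene length.

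Lipid synthesis genes gave 7 falls and 2 rises among 41 (17.1% and 4.88%, against 10.3% and 6.87% of all genes). Acacb, the mitochondrial acetyl-CoA carboxylase that restrains fatty acid oxidation, was at 4.57, 6.16, 4.25, 4.08 and 4.71 RPKM in flox and 2.21, 1.95, 2.09, 1.903 and 1.76 RPKM in null (-1.07, limma adjusted p = 0.000154). Mvk, mevalonate kinase of the sterol pathway, was at 16.2, 15.2, 17.1, 15.9 and 16.7 RPKM in flox and 11.5, 10.3, 9.996, 9.01 and 9.58 RPKM in null (-0.66, adjusted p = 0.000166). These 2 were the falls of the list that passed with the erythroid level in the fit, and without flox 5 or null 5 there were 4 falls. In the hypoxia and glycolysis list 3 of 39 fell and 1 rose (7.69% and 2.56%, both under the shares of all genes). The rise was lost without any of flox 1, 2 and 5 or any null library. Ldhb, a lactate dehydrogenase subunit typical of heart, fell from 30.2 ± 4.61 to 20.4 ± 2.35 RPKM (-0.55).

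**Figure D3:**
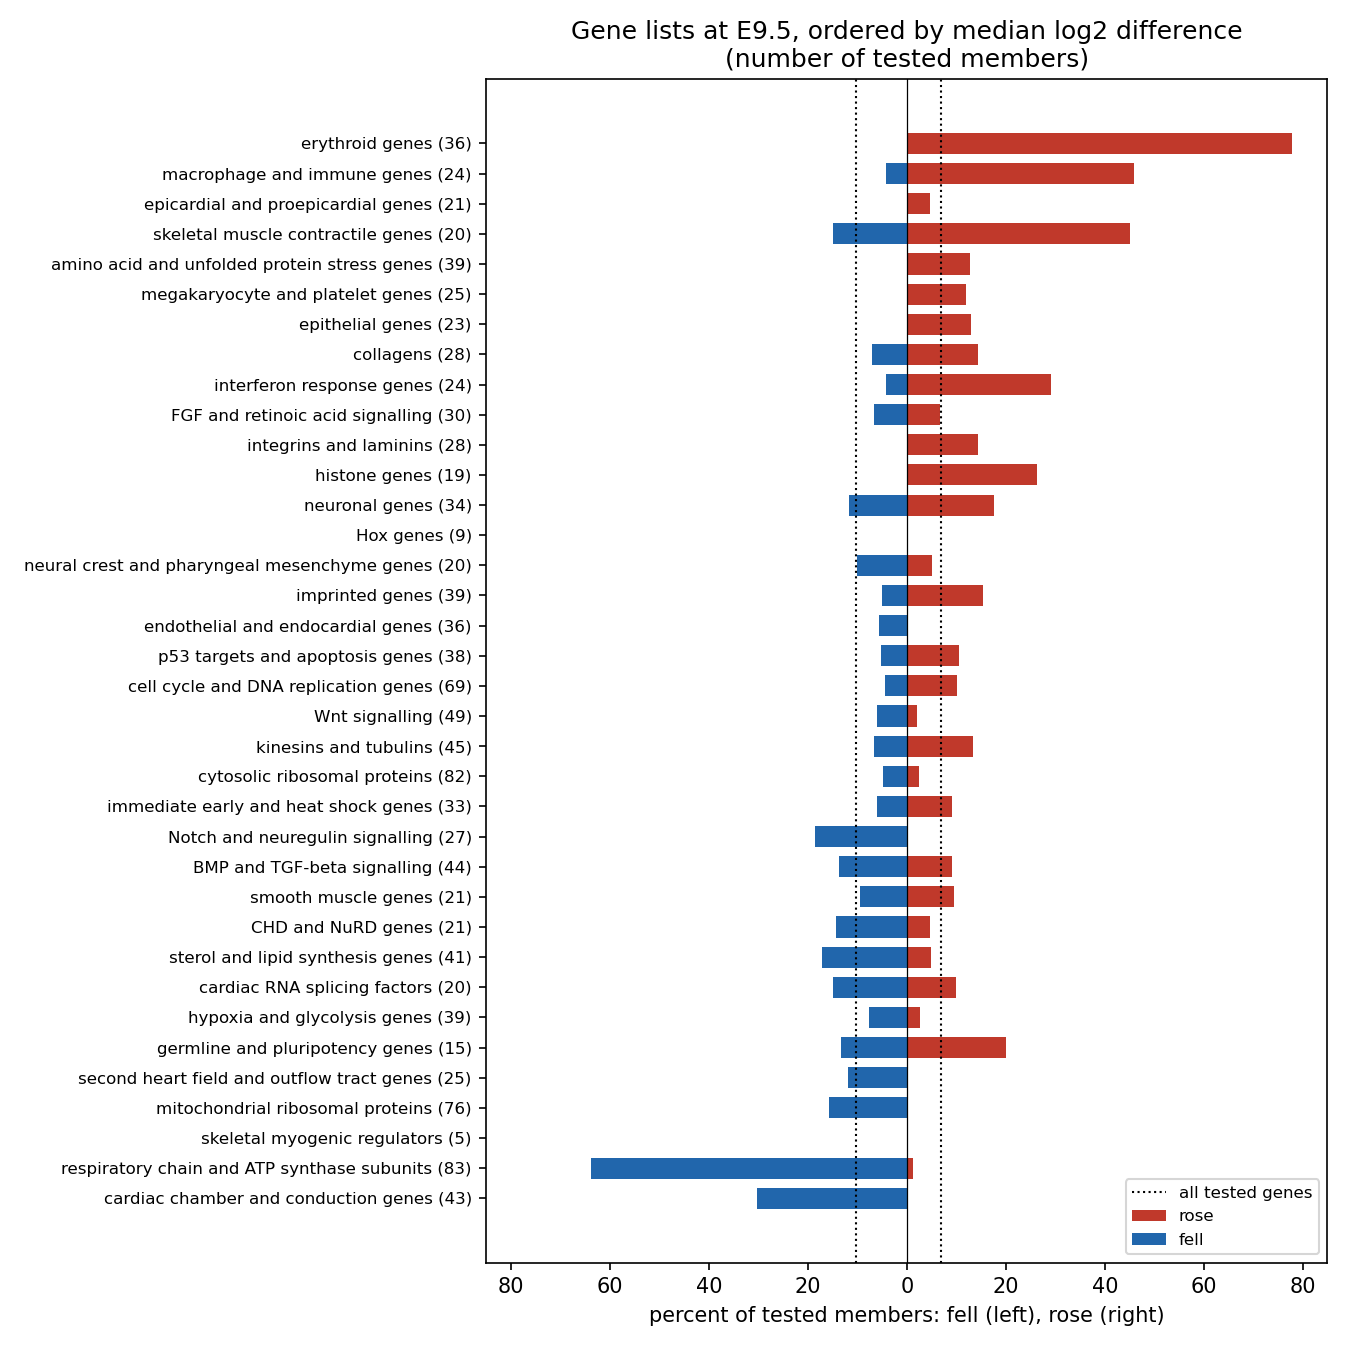
Percent of tested members that rose (right) and fell (left) in 36 gene lists at E9.5, ordered by median log2 difference, with the number tested in brackets; dotted lines are the shares of all tested genes, 6.87% and 10.3%. Erythroid genes had the largest share of rises and respiratory chain subunits the largest share of falls.

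Chromatin and imprinted genes included small sets of tight rises. The linker histone gene H1f0 was at 109, 102, 103, 122 and 109 RPKM in flox and 190.1, 182, 189.6, 182 and 179.8 RPKM in null (0.76, limma adjusted p = 1.91e-05). Hist1h2bc rose from 7.31 ± 1.81 to 16.9 ± 2.37 RPKM (1.18) and H3f3b, encoding the replication-independent histone H3.3, from 81.7 ± 5.64 to 112 ± 6.25 RPKM (0.46). These are histone genes whose transcripts can carry a poly(A) tail, and 59 of the 78 listed were under the filter in these polyadenylated libraries. In all 5 of 19 tested histone genes rose (26.3%, against 6.87% of all genes). The 5 rises were 3 without flox 3, null 3 or null 5, and 2 with the erythroid level in the fit. Of 39 imprinted genes 6 rose and 2 fell (15.4% and 5.13%, against 6.87% and 10.3% of all genes). Rian, Meg3 and Mirg are noncoding RNAs made from the maternal copy of the Dlk1-Dio3 domain. Rian was at 27.9, 25.04, 27.7, 32.2 and 23.5 RPKM in flox and 47.6, 45.8, 50.96, 49.5 and 51.8 RPKM in null (0.84, adjusted p = 0.000111). Meg3 rose from 15.9 ± 3.26 to 26.2 ± 0.9204 RPKM (0.73) and Mirg from 6.77 ± 1.39 to 11.7 ± 0.446 RPKM (0.77). With the erythroid level in the fit Rian kept its call, and Meg3 (adjusted p = 0.0853) and Mirg (adjusted p = 0.0940) did not. In that fit the differences of the last 2 were 0.74 and 0.72, close to those without it. Nap1l5, an imprinted gene of the nucleosome assembly family, rose from 1.17 ± 0.294 to 2.34 ± 0.251 RPKM (0.78), and its call ended in that fit too (difference 0.80, adjusted p = 0.0920). The 2 falls of the list were 1 without any of flox 1, 2, 3 and 5 and null 2, 3 and 5, and 3 without null 1.

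Few germline and pluripotency genes were expressed: 40 of 55 were under the filter. Of the 15 tested 3 rose and 2 fell (20% and 13.3%, against 6.87% and 10.3% of all genes). The member Tex19.1 passed the filter only through the null libraries, so the share of rises depends on the filter. Without the filter the list had 7 rises and 2 falls. Tex19.1, a germ cell gene that guards against retrotransposons, was at 0.107, 0.147, 0.322, 0.0284 and 0.0554 RPKM in flox and 1.26, 1.45, 1.21, 0.801 and 1.19 RPKM in null (1.42, limma adjusted p = 0.000275). The reproductive homeobox gene Rhox5 rose from 5.07 ± 1.47 to 14.97 ± 2.89 RPKM (1.49), and its call ended with the erythroid level in the fit (adjusted p = 0.0513). Germ cell markers summed to at most 0.557 RPKM in any library, with Pou5f1 at no read. In the epithelial list 3 of 23 rose (13.04%, against 6.87% of all genes), 5 without flox 4. Vil1, encoding the microvillar protein villin, was at 2.32, 1.48, 2.12, 0.541 and 1.51 RPKM in flox and 29.99, 20.45, 25.6, 21.1 and 20.6 RPKM in null (3.58), and Pax8, a thyroid and kidney factor gene, rose from 0.255 ± 0.184 to 1.65 ± 0.438 RPKM (1.51). The defining epithelial markers summed to 11.5 to 27.2 RPKM in flox and 19.8 to 28.5 RPKM in null, and Krt8 made up most of that sum. The means of the markers Cdh1, Epcam and Cldn6 were 0.292, 0.683 and 0.924 RPKM in flox. In null they were lower, at 0.154, 0.517 and 0.471 RPKM, and flox 4 was the highest library for each.

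Adhesion, signalling and growth genes gave smaller changes. Itga6, the integrin alpha 6 subunit of laminin receptors, was at 94.03, 90.5, 96.2, 94.2 and 99.6 RPKM in flox and 165, 136, 154, 145 and 151 RPKM in null (0.66, limma adjusted p = 6.33e-05), a tight rise that passed in each of the 24 other settings. Fgfrl1, an FGF receptor without a kinase domain, rose from 18.9 ± 1.21 to 30.5 ± 3.47 RPKM (0.67) and Fgf13 from 10.1 ± 0.671 to 13.2 ± 0.597 RPKM (0.37). These were the 2 rises among 30 genes of FGF and retinoic acid signalling, where 2 fell (6.67% each, against 6.87% and 10.3% of all genes). Among 44 BMP and TGF-beta genes 6 fell and 4 rose (13.6% and 9.09%, against 10.3% and 6.87% of all genes). Bmp7 fell from 59.7 ± 2.105 to 48.7 ± 3.04 RPKM (-0.30). All BMP and TGF-beta calls ended with the erythroid level in the fit, the 4 rises were 1 or 2 without any of flox 1, 3 and 5 and null 2 and 3, and the 6 falls were 3 without null 5. Without null 1 there were 4 FGF and retinoic acid rises, and the 2 falls of that list were 1 without any of flox 1, 3, 4 and 5 and null 2, 3 and 5. In the cell cycle list 7 of 69 rose and 3 fell (10.1% and 4.35%, against 6.87% and 10.3% of all genes). The proliferation genes Mki67 (43.7 to 62.1 RPKM, 0.49), Top2a (102 to 119 RPKM, 0.22) and Kif11 (33.2 to 38.1 RPKM, 0.20) rose, while Cdk4 (349.5 to 289 RPKM, -0.28) and Ccnd2 (194 to 157 RPKM, -0.31), both of the G1 phase, fell. The last 2 were chosen after their values were seen. Without flox 2 or flox 5 the 7 rises were 4, without flox 1 or null 5 the 3 falls were 1, and without null 1 they were 5. The call of Cdk4 ended without flox 1, flox 3 or null 5, and that of Ccnd2 without flox 1, flox 2, flox 5 or null 5. All of these calls ended with the erythroid level in the fit.

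Blood cell genes rose most broadly. Of 36 tested erythroid genes 28 rose (77.8%, against 6.87% of all genes) with a median of 1.11. Ermap, an erythroid membrane protein gene, was at 5.56, 4.896, 9.56, 4.56 and 6.36 RPKM in flox and 11.6, 20.7, 13.4, 23.004 and 21.8 RPKM in null (1.47, limma adjusted p = 0.00215). Flox 3 was the highest flox library, and null 1 and null 3 were the lowest null libraries. Of 24 macrophage and immune genes 11 rose and 1 fell (45.8% and 4.17%, against 6.87% and 10.3% of all genes). The median was 0.75. Another 21 genes of the list were under the filter, and members such as Nkg7 and Rac2 passed it only through the null libraries. The share and the median therefore depend on the filter. Nkg7, also known from cytotoxic lymphocytes, averaged 0.0580 RPKM in flox. It was at 0.376 RPKM in null 1 and 4.10 to 7.14 RPKM in null 2 to 5. Spi1, encoding the myeloid factor PU.1, was at 0.289, 0.4403, 0.807, 0.849 and 0.663 RPKM in flox and 2.8003, 5.18, 4.26, 3.65 and 2.77 RPKM in null (1.93, adjusted p = 0.000166). Rac2, a GTPase of blood cells, rose from 0.458 ± 0.199 to 2.52 ± 0.927 RPKM (1.61) and Laptm5, a lysosomal protein of blood cells, from 2.72 ± 0.432 to 7.07 ± 2.39 RPKM (1.18). Cd2 (0.433 ± 0.0769 to 2.65 ± 0.599 RPKM, 1.74) and Cd37 (0.322 ± 0.187 to 2.247 ± 0.728 RPKM, 1.73), both chosen after their values were seen, were above every flox library in all 5 null libraries. The defining macrophage markers were low in both groups, summing to 0.371 to 3.34 RPKM in flox. They summed to 0.841 RPKM in null 1, inside the flox range, and to 4.93 to 5.49 RPKM in null 2 to 5, above every flox library. With the erythroid level in the fit Spi1 was the 1 macrophage and immune gene called. Spi1, Cd2 and Cd37 kept their calls in that fit.

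A set of transcripts known from cytotoxic lymphocytes, picked out by their pattern, was present in null 2 to 5 and near absent from null 1 and all flox libraries. A search over all genes of at least 200 bp for at most 3 reads in each of flox 1 to 5 and null 1 and at least 10 reads in each of null 2 to 5 returned 15 genes. They included Gzma, Gzmb, Ccl5, Cd7, Rgs1, Cd3g, Prf1, Fasl, Cd69, Cd48, Cd244, Gimap3, Cd200r4 and AW112010; the search was made after the values were seen. Gzma, the granule protease granzyme A, was at 48.2, 40.3, 42.1 and 67.1 RPKM in null 2 to 5 and had no read in null 1. The chemokine gene Ccl5 was at 42.8, 36.7, 34.9 and 58.4 RPKM and granzyme B, Gzmb, at 21.7, 18.6, 19.6 and 32.0 RPKM in the same libraries. The ratio of Ccl5 to Gzma stayed at 0.830 to 0.912 and that of Gzmb to Gzma at 0.451 to 0.477 over the 4 libraries, with null 5 highest for all 3. The 15 genes made up 0.0157, 0.0134, 0.0136 and 0.0225% of the reads on genes in null 2 to 5. Ptprc, the pan-leukocyte gene CD45, was at 0.407 to 0.750 RPKM in these 4 libraries, 0.0541 RPKM in null 1 and 0.00827 to 0.208 RPKM in flox. Of the 15 genes 7 passed the expression filter, through the null libraries alone, and limma called all 7, which the search had fixed and which is no support. With the erythroid level in the fit all 7 calls ended, and voom called none of Gzma, Gzmb, Ccl5, Cd7, Rgs1, Cd3g and AW112010 (adjusted p 0.119 to 0.447). A list of 28 cytotoxic lymphocyte genes, also chosen after the values were seen, had 27 in the table, and not all followed the pattern. Of the 27, 6 had at most 3 reads in every library, among them Cd3d, Cd3e, Cd4 and Gzmk, and Ncr1 had none. Cd247 was at a mean of 5.24 RPKM in flox and 4.90 RPKM in null, and Eomes at 0.124 and 0.172 RPKM. At E10.5 none of the 15 exceeded 0.866 RPKM in any library, and Gzma was at 0.445 to 0.503 RPKM in null. Some of the 15 were already that low in null 2 to 5 at E9.5, so this limit shows no drop for them. Prf1 was at 0.365 to 0.772 RPKM there and at 0.375 to 0.866 RPKM in null at E10.5. Cd48 was at 0.441 to 0.564 RPKM and at 0.0488 to 0.579 RPKM.

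**Figure D4:**
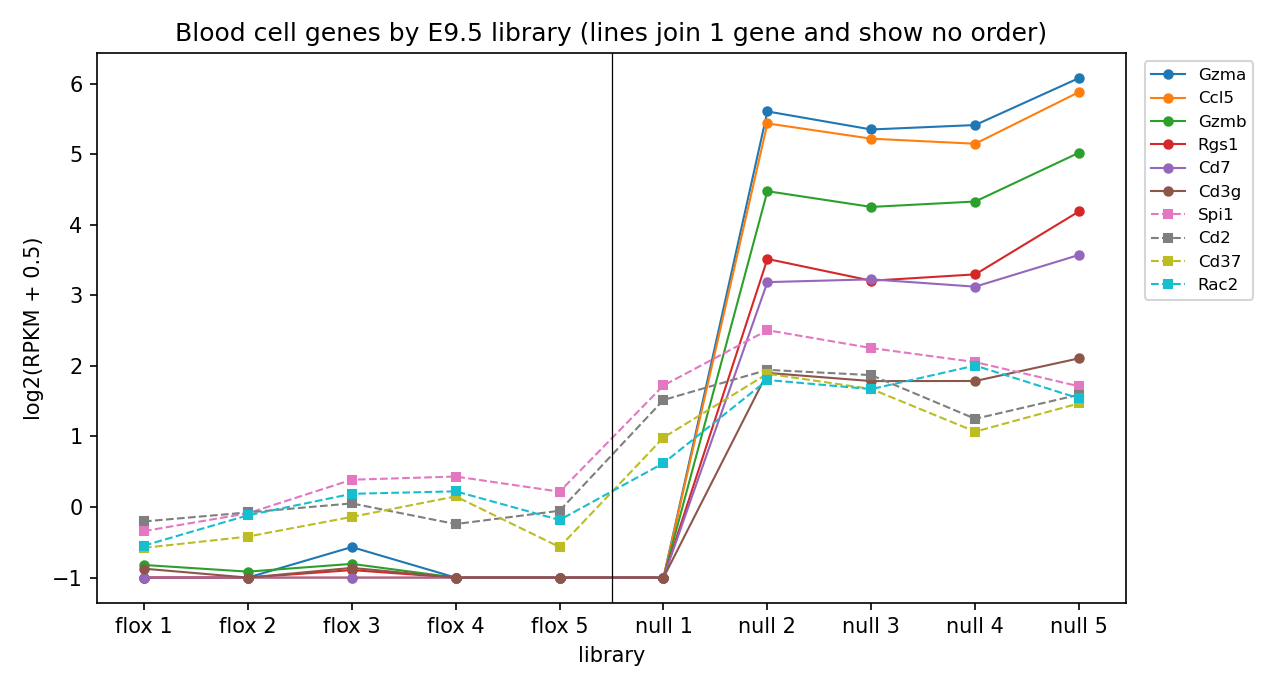
Log2(RPKM + 0.5) of 10 blood cell genes in each of the 10 libraries; lines join the values of 1 gene and show no order. Gzma, Ccl5, Gzmb, Rgs1, Cd7 and Cd3g lie at the floor in flox 1 to 5 and null 1 and rise together in null 2 to 5, while Spi1, Cd2, Cd37 and Rac2 are higher in all 5 null libraries.

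Null 1 also stood apart in other genes. Its markers of epicardium summed to 46.3 RPKM against 137 to 143 in null 2 to 5, those of platelets to 7.88 against 17.6 to 57.1, and those of liver and foregut to 0.5002 against 5.04 to 12.02. Their part in the result was not tested. For 125 of the 937 rises (13.3%) null 1 lay inside or below the flox range while null 2 to 5 lay above it, and for 177 of the 1405 falls (12.6%) the reverse held. Over rises and falls this made 302 genes for null 1, against 33 to 84 for each other null library and 40 to 163 for each flox library. Without null 1, 1102 genes rose and 1675 fell. Among interferon response genes 7 of 24 rose and 1 fell (29.2% and 4.17%, against 6.87% and 10.3% of all genes). For 5 of the 7 rises null 1 lay within the flox range. B2m, the light chain of MHC class I, was one of them, at 51.8, 63.002, 49.3, 59.3 and 52.6 RPKM in flox and 60.03, 83.6, 88.5, 100.3 and 92.4 RPKM in null (0.60, limma adjusted p = 0.00911). Ifitm2 was above every flox library in all 5 null libraries (24.3 ± 0.947 to 32.5 ± 2.43 RPKM, 0.41). The 7 interferon rises were 3 or 4 without any of flox 1, 2 and 5 and null 2 to 5, and all 7 calls ended with the erythroid level in the fit. Amino acid and unfolded protein stress genes rose in 5 of 39 (12.8%, against 6.87% of all genes), and 3 of the 39 were lower in null. Asns, asparagine synthetase, rose from 34.6 ± 8.43 to 59.2 ± 20.53 RPKM (0.74, adjusted p = 0.0399), with null 4 at 93.6 RPKM, and its call was lost without any of flox 1, 2 and 5 and null 2, 4 and 5. That count was 8 without null 1, 1 to 3 without any other library, and 0 with the erythroid level or the sex in the fit.

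Of 36 endothelial and endocardial genes 2 fell (5.56%, against 10.3% of all genes), and the median was 0.03. The 2 were Klf2 and Sox18, both encoding factors of vessel endothelium. At an unadjusted p under 0.05 limma had 4 higher and 8 lower, and after median scaling 2 rose and the 2 falls were lost. Defining endothelial markers summed to 162 to 212 RPKM in flox and 182 to 214 RPKM in null. Klf2 fell from 14.5 ± 2.304 to 9.799 ± 2.44 RPKM and Sox18 from 17.3 ± 4.06 to 11.3 ± 2.49 RPKM. Each call ended in 15 of the 24 other settings, and without most single libraries, including flox 1, 3, 4 and 5 and null 2, 3 and 5 for both. Markers of decidua and trophoblast appeared in single libraries of both groups: Prl8a2 was at 36.3 RPKM in flox 3, 11.3 in flox 5 and 30.6 in null 2, and at most 2.01 RPKM in the other 7. The liver and foregut markers summed to 0.554 to 28.5 RPKM in flox and 0.5002 to 12.02 RPKM in null. How much such tissue bore on the changes was not tested.

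CHD4 binding at E10.0 was set beside the E9.5 changes through the promoter, taken from 250 bases before to 50 bases after the RefSeq gene start (GRCm38.p6). Windows were found for 10152 of the tested genes (74.4%). A window counted as bound when it overlapped a deposited peak by at least 1 bp in all 3 peak lists, which held 84271, 60749 and 50232 peaks and come from 2 biological samples. Genes that rose were the least often bound: 163 of 705, or 23.1%. Genes not called were bound in 48.7% and genes that fell in 57.2% (637 of 1114). Binding itself went up with expression, and rises lie at lower levels. The order was the same within each of the 5 quintiles of mean expression. These quintiles use the mean over both groups and do not match genes on their flox level, and the part of expression level was not tested. In the lowest quintile the shares were 5.94% for rises, 25% for genes not called and 32.1% for falls. In the highest they were 40.5%, 65.3% and 67.0%. Of 126 rises of at least 2-fold with a window 9 were bound (7.14%), and of 26 such falls 6 (23.1%). The order was the same with a peak in any list (53.05, 79.4 and 86.7%) and with peaks within 5 kb of the start (50.8, 72.1 and 79.4%). These are shares with no test.

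**Figure D5:**
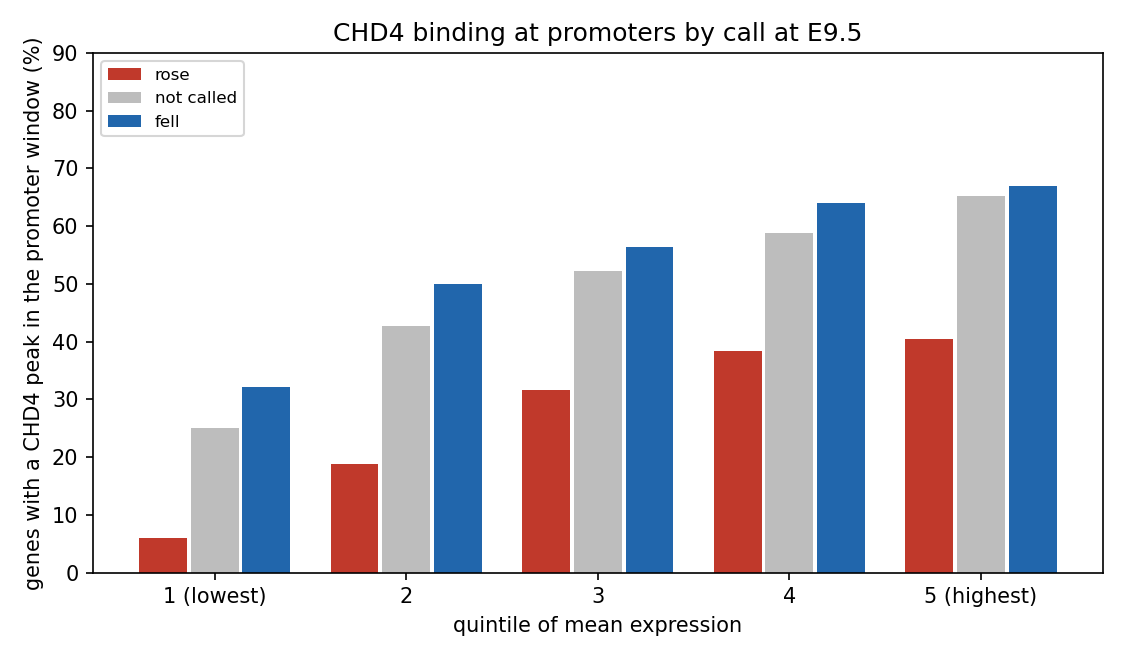
Percent of genes whose promoter window overlapped a CHD4 peak in all 3 lists, by quintile of mean expression at E9.5 and by call. In each quintile the share is lowest for genes that rose and highest for genes that fell, from 5.94% and 32.1% in quintile 1 to 40.5% and 67.0% in quintile 5.

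Among the 20 largest falls Cend1, Nkx2-5 and C2cd4b had a bound promoter window, and among the 20 largest rises with a window none did. The windows of the first 2 are shown with that of Tnnc2, the largest rise among genes without overlap, added after the values were seen; capitals mark the E-box letters CANNTG, searched on both strands.
Cend1 (chr7:141429513-141429812, minus strand): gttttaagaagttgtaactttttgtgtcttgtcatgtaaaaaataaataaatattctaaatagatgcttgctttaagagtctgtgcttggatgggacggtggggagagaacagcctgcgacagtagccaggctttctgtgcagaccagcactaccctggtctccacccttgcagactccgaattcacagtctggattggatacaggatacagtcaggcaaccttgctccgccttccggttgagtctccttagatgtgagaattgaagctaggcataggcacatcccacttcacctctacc
Nkx2-5 (chr17:26841516-26841815, minus strand): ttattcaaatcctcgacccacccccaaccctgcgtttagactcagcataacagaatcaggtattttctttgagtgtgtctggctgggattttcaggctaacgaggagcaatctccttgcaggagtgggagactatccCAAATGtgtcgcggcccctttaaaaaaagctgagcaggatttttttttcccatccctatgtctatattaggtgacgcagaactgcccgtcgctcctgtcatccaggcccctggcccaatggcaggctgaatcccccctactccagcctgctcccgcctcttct
Tnnc2 (chr2:164779685-164779984, minus strand): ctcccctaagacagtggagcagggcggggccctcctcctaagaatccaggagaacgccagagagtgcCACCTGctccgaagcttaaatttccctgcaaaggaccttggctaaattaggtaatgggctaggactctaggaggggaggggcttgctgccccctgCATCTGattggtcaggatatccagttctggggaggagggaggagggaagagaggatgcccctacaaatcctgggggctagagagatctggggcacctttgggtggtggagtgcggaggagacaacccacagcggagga
All are RefSeq windows of GRCm38.p6, written 5′ to 3′ along the gene. The peaks of the 3 lists over the Cend1 window were 116, 308 and 404 bp wide, and those over the Nkx2-5 window 1225, 467 and 693 bp. Nkx2-5, the homeodomain factor of the cardiac lineage, was at 141, 103, 132, 111 and 96.8 RPKM in flox and 58.2, 50.02, 40.6, 31.1 and 34.7 RPKM in null. The E-box of the Nkx2-5 window starts at position -113 from the gene start, and the first of the 2 of Tnnc2 at -183. The Cend1 window held none. Of all 32851 windows 72.3% hold CANNTG, so a match is common. The letters CATTCC (14.7% of windows), TATAAA (13.6%) and AGATAA (11.2%) and the CArG box (1.63%), searched in the same way, are in none of the 3 windows. Tnnc2 had no peak in its window in any list, and its nearest peaks in the 3 lists that overlap each other began 4586, 4590 and 4607 bases from the start. List 1 alone had one at 531 bases.

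The E9.5 differences were set beside those at E10.5, where the 3 flox and 3 null libraries are other samples. Of 911 E9.5 rises tested at both stages 84.5% were higher in null at E10.5, with a median difference of 0.50 against 0.57 at E9.5. Of 1392 falls 64.9% were lower in null at E10.5, with a median of -0.11 against -0.37. Among genes not called at E9.5, 43.3% were higher and 56.7% lower at E10.5. At least 2-fold changes kept their direction in 172 of 175 rises and 33 of 34 falls. Apoc1 (2.84, limma adjusted p at E10.5 = 0.00306), Lncenc1 (2.77, 0.00149), Cplx1 (2.21, 0.00984) and Rhox5 (2.09, 0.00113) rose at E10.5 as well. Asb12 (-1.35, 0.0469), Klhl41 (-1.36, 0.00739) and Mov10l1 (-1.54, 0.019001) fell at both stages. Few genes were called at both: 145 of the 911 rises and 27 of the 1392 falls were called at E10.5, where each group had 3 libraries.

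The difference between stages was tested as an interaction over all 16 RNA libraries, which called 531 of 13886 genes (3.82%). It called 42 of the 911 E9.5 rises and 142 of the 1392 E9.5 falls, which were chosen on the same E9.5 values. In the respiratory chain list at E10.5, 51 of the 83 subunits were lower in null, with a median of -0.07, and 2 of the 83 passed the interaction. Kif5c differed between stages, with a rise of 1.40 at E9.5 and a difference of -0.01 at E10.5. For Meg3 the difference went from 0.73 to 1.82 and for Mirg from 0.77 to 1.77. In the hypoxia and glycolysis list 37 of 39 genes were higher in null at E10.5 (median 0.91, against -0.09 at E9.5), and 7 of the 39 passed the interaction.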

How the data were processed

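RNA of 5 flox and 5 null heart samples at E9.5 was sequenced. Per the submitters' processing notes, which give no role or order, HTSeq 0.6.2, DESeq2 1.6.3, Bowtie 1.2.0, MACS2, bedtools 2.25.0 and SAMtools 1.6 were used with the build mm10. How strand was set in the counting was not stated. The authors deposited 1 RPKM table per stage, with a gene length in base pairs beside the values. Low RPKM values were whole multiples of what 1 read is worth, and reads were recovered for 100% of values within 0.01. The authors also deposited a table of changed genes with log2 fold changes and p-values, of which only membership and direction were used, and 3 CHD4 peak lists with a score per peak, which were used for positions only.

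Genes averaging 0.5 RPKM or more were tested on log2(RPKM + 0.5) with limma 3.58.1 in R 4.3.3, over the 10 libraries, with no covariate and Benjamini-Hochberg adjustment. That average is over both groups, so genes low in flox could pass through the null libraries alone. Among the genes named these include Mapk8ip2, Prph, Myot, Lncenc1, Tex19.1, Pax8, Cd2 and Cd37. Shares of rises in lists with such genes depend on the filter. Differences are null minus flox on that scale, which understates changes of low genes. The test was also run on simulated data, the outcome of which is not given here. Pseudocounts of 0.1 and 1, no filter, a mean of at least 1 RPKM, median and quantile scaling, rescaling without erythroid and the top 10 genes, array weights, robust moderation, a replicate block, the sex or erythroid level as covariate, voom on the recovered reads and leaving out libraries were the 24 alternatives. The members and gene lists were chosen with earlier results of these data known. The genes named are Chd4, the 20 largest rises and 20 largest falls without overlap, the 10 largest differences in RPKM, up to 8 genes with at most 3 reads in one group, and up to 4 called genes of smallest p per list. Other genes named were chosen after their values were seen. Columns of per-sample values that matched no sample numbered 0. Tables were joined and drawn with Python 3.11.15 using pandas 2.3.3, numpy 2.4.6, matplotlib 3.10.9 and scipy 1.17.1. Promoter windows are from RefSeq.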

Additional observations from a re-analysis of the deposited data

Results flagged for a closer look

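In groups of 5, some genes had 1 library far from its 4 fellows, which chance gives for about 1 in 20 groups. Flox 4 stood apart for Cplx1 at 0.338 RPKM (the others at 0.809 to 0.861), for Igfbp2 at 83.7 RPKM (34.7 to 41.0) and for Mycn at 43.1 RPKM (36.1 to 37.3). Flox 1 stood apart for Sema3c at 13.5 RPKM (11.1 to 11.3), and null 3 for Bex1 at 145 RPKM (127 to 130.3). Null 1 was at 0 RPKM for the lymphocyte genes Cd7 and Cd3g, whose other null libraries were at 8.21 to 11.4 RPKM and 2.94 to 3.81 RPKM. Both genes belong to the set searched for by few reads in null 1, so this gap restates the search. Null 2 was at 30.6 RPKM for the decidual gene Prl8a2, with the other null libraries at 0.214 to 2.01 RPKM.

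The null minus flox difference itself differed between E9.5 and E10.5 for 7 of the genes named, by the interaction in limma. It was larger at E10.5 for Aoc3 by 1.12 (adjusted p = 0.0391), Meg3 by 1.09 (0.0365), Mirg by 0.99 (0.0249) and Cd2 by 1.06 (0.0438). It was smaller for Kif5c, by -1.40 (0.0239). For Wnt11 it moved by 0.84 (0.0410), from -0.71 at E9.5 to 0.12 at E10.5, and for Mrpl14 by 0.90 (0.0252), from -0.51 to 0.39. The 2 stages come from separate deposited tables.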

How the results depend on the processing

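The 2342 changed genes became 3549 (1437 rises, 2112 falls) with array weights, 1238 (569, 669) with the sex in the fit, 195 (127, 68) with the erythroid level in the fit and 1344 (626 rises, 718 falls) without flox 1, flox 3 and null 1. Leaving out 1 library gave 1543 (without null 5) to 2777 (without null 1) changed genes, with 678 to 1102 rises and 865 to 1675 falls. Apart from the replicate block given next, the other alternatives kept each count within 1.5 times. The count of genes whose difference changed between stages was 551 with a pseudocount of 1. Percentages of genes with a CHD4 peak were 53.05 (rose), 86.7 (fell) and 79.4 (not called) with a peak in any list, and 50.8, 79.4 and 72.1 within 5 kb of the start. Depth limits precision for genes near the 0.5 RPKM filter, and precision was not measured by level.

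The groups share replicate numbers, and nothing in the labels says that a number marks a shared litter, batch or day. The deviations of same-numbered libraries correlated at 0.451, 0.0417, -0.136, 0.519 and 0.258 for numbers 1 to 5, and 3 of the 5 (1, 4 and 5) correlated best with their own number. A partial pairing is thus a hint from the data, not from the design, and the counts reported use no block. With a replicate block 3698 genes changed, 1398 rises and 2300 falls.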
